A study of Mus musculus with 36 samples.

Results

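BV+SC+ cells are mouse cells with features of primordial germ cells, sorted at Day 6 of a culture that starts from epiblast stem cells (EpiSCs). The libraries described here are the 2 samples, of 36 in the series, that hold bulk RNA-seq of these sorted cells. They were picked as the pair whose descriptions differ in the medium, 2iJi for the first and GK15 for the other. The 3 EpiSC samples served as the reference for the primed state and for ordinary spread between libraries, and 2 samples from Day 3 of the culture gave values for single genes.

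Both BV+SC+ libraries came from EpiSCs derived from embryonic stem cells (ESCs) that carry Blimp1-mVenus and Stella-ECFP, reporters of Prdm1 and Dppa3. Those EpiSCs spent 3 days in iCD1 medium, which holds Vitamin C, bFGF, LiCl, LIF and the GSK3 inhibitor CHIR99021, together with BMP4, the DOT1L inhibitor EPZ5676 and the EZH2 inhibitor EPZ6438. They then spent 3 more days in another medium before cells positive for both reporters were sorted. The protocol common to all labels gives that medium as N2B27 with the MEK inhibitor PD0325901, CHIR99021 and Vitamin C. The sample descriptions instead name 2iJi and GK15, without spelling out either, while the titles only number the libraries. The 2 libraries may therefore also be replicates of 1 medium, and medium below means the name in the description. Earlier work used GK15 to specify germ cells from ESCs. The study also tried it in these last 3 days, alone and with BMP4, SCF, EGF and LIF, and obtained BV+SC+ cells both ways. The description does not say whether those cytokines were added. In another of the study's experiments a JAK inhibitor was added at this stage, but no source used here says what 2iJi holds. EpiSCs were kept in N2B27 with Activin A, bFGF and XAV939, a tankyrase inhibitor that lowers WNT signalling, and their labels do not say whether they carry the reporters. The Day 3 libraries are labelled as made with and without SGC0946, another DOT1L inhibitor. Each medium has 1 library, so medium and library cannot be told apart, no difference below has a replicate check, and every comparison is one of these libraries. In bulk RNA, fewer cells of a type and less RNA per cell cannot be told apart either.

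The 2iJi library held 14778809 expected counts and the GK15 library 18099059, against 2444211 to 3070115 in the EpiSC libraries. Levels are given in TPM, a gene's share of all transcripts scaled to the same total in each library, which allows for transcript length. Differences are log2 ratios of TPM + 1, 2iJi over GK15, and a gene is called higher in a medium when it is past 2-fold, that is, a log2 ratio over 1 or under -1. Intervals are 95% intervals for counting error only, and leave out variation between cultures, duplicate reads and the sharing of reads between transcripts.

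Primordial germ cells form from epiblast cells that receive BMP signals. Prdm1, Prdm14 and Tfap2c then start the germ cell programme while epiblast genes such as Otx2 are shut down. Culture media for these cells differ mostly in the signals they block or supply. Inhibition of MEK lowers the ERK feedback genes of the Spry, Dusp and Etv families, inhibition of GSK3 stabilises beta-catenin and raises WNT targets such as Axin2, and LIF acts through JAK kinases and STAT3 on genes such as Socs3.

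The reporter genes were at nearly equal levels in both media. Prdm1, the repressor that starts germ cell specification, stood at 128 TPM in 2iJi and 128 TPM in GK15, against 0.24 to 0.54 TPM in the EpiSC libraries. Dppa3, a maternal factor that shields DNA from demethylation, stood at 1162 TPM in 2iJi and 1202 TPM in GK15 and had no counts in any EpiSC library. The other markers set for BV+SC+ cells were likewise present in both. Tfap2c, an AP-2 factor of germ cells, reached 168 TPM in 2iJi and 213 TPM in GK15. The RNA-binding protein gene Dnd1 reached 107 and 88.9 TPM, and Prdm14 reached 40.3 and 40.9 TPM. Nanos3, which protects migrating germ cells from death, differed most among them, at 43.4 TPM in 2iJi and 21.5 TPM in GK15 (log2 ratio 0.98, interval 0.66 to 1.31). Both libraries thus carried the markers of their label. The cells were sorted on reporters of Prdm1 and Dppa3, so the presence of these genes in both libraries is no separate support.

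Over the whole gene list, 12242 genes had at least 50 expected counts summed over both libraries. Of these, 583 were higher in 2iJi by more than 2-fold (4.76%) and 491 were higher in GK15 (4.01%), with a median log2 ratio of 0.03. Values above 0 were found for 6523 genes (53.3%) and below 0 for 5703 (46.6%). Which side holds more calls depends on the scaling. TMM, which rescales libraries on the assumption that most genes are unchanged, gave 527 genes higher in 2iJi and 553 in GK15, and CPM, counts scaled to library depth without length, gave 713 and 446. For 573 genes (4.68%) the whole counting interval lay past 2-fold. The remaining 11168 genes lay within 2-fold.

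The same calculation between pairs of EpiSC libraries gave a measure of ordinary spread. Past 2-fold were 513 to 572 genes (4.19% to 4.67%), although those libraries are several times shallower, against 1074 genes (8.77%) between the 2 media. Counting error is smaller among the 6721 genes with a mean of at least 20 TPM over the 5 libraries. They include genes absent from EpiSCs, such as Dppa3, which add no spread between EpiSC libraries. Of the 6721, 276 genes (4.11%) were past 2-fold between the media and 97 to 105 genes (1.44% to 1.56%) between EpiSC libraries. Between a BV+SC+ library and an EpiSC library, 1581 to 1807 of those genes were past 2-fold (23.5% to 26.9%). So the media differed by more than EpiSC libraries did, and by far less than either differed from EpiSCs. Of all measured genes, 980 (8.01%) were past 2-fold and also differed by more than every pair of EpiSC libraries, 534 of them higher in 2iJi and 446 in GK15. A gene without counts in EpiSCs, such as Meis2 or Aire, has no spread there and cannot fail this comparison. For genes silent or nearly silent in EpiSCs it is therefore no check.

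**Figure D1:**
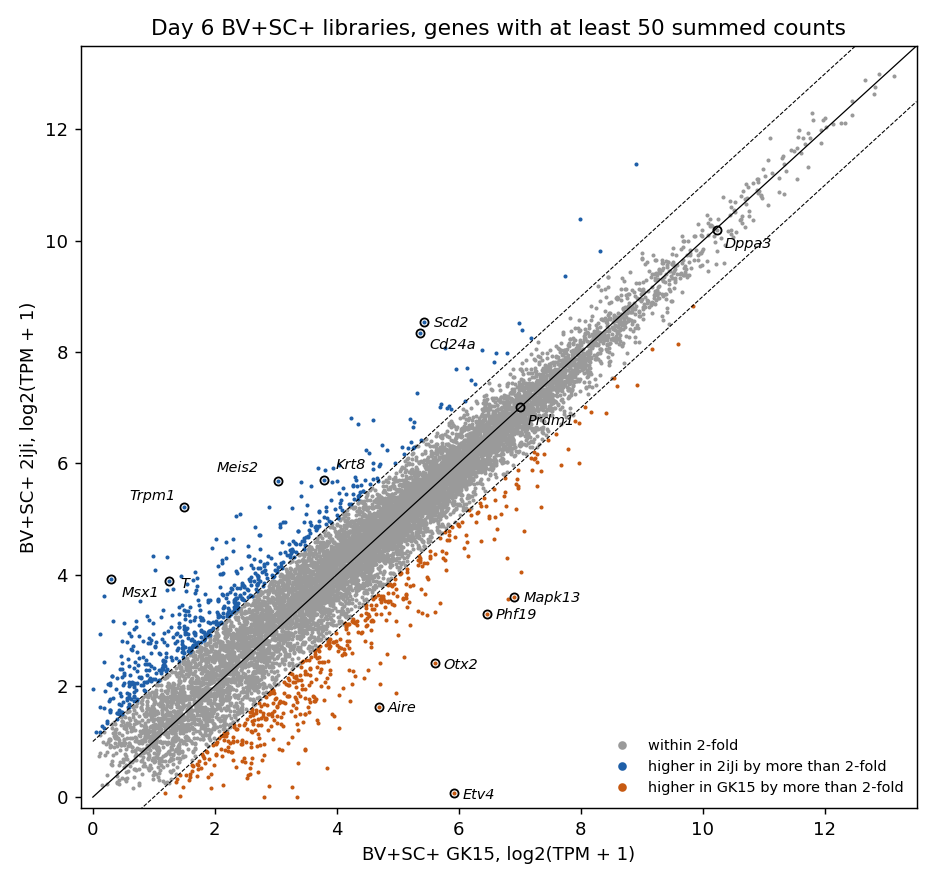
Level of each of 12242 genes in the GK15 library (x axis) and the 2iJi library (y axis), as log2(TPM + 1), with the diagonal and the 2-fold lines. The reporter genes Prdm1 and Dppa3 lie on the diagonal, while Otx2 and Etv4 lie far on the GK15 side and T and Krt8 on the 2iJi side.

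Against EpiSCs, both libraries moved together for most genes that moved. Both comparisons share the same EpiSC mean, so part of this agreement is built in. Past 2-fold against the mean of the 3 EpiSC libraries, 1719 genes were higher in both media and 1225 were lower in both, while 8 had moved in opposite directions. In 2iJi alone, 490 genes were higher and 328 lower, and in GK15 alone 520 were higher and 609 lower. Of the 1074 genes that differed between the media, 650 were nearer to EpiSCs in 2iJi and 424 in GK15. GK15 cells were therefore not nearer to the primed state over the whole list, even though several well-known primed genes were. No share of all genes above or below every EpiSC library is given here, so such counts for the lists below are descriptions only.

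Otx2, a homeobox factor of the primed epiblast whose loss favours germ cell fate, stood at 4.29 TPM in 2iJi and 47.5 TPM in GK15, against 117, 83.8 and 87.4 TPM in the EpiSC libraries. Of the media it was low only in 2iJi, and GK15 lay below all 3 EpiSC libraries without reaching the level of 2iJi. The ratio of TPM was 11.1-fold (interval 8.29 to 15.1), from 49 and 801 expected counts. At Day 3, with and without SGC0946, Otx2 stood at 1.00 and 0.78 TPM, below both Day 6 libraries. The gene lies on chromosome 14, from 48657677 to 48673819 on the minus strand of mm10.

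T, also called Brachyury, is a factor of the primitive streak and of early germ cell precursors, on chromosome 17 from 8434423 to 8442496 on the plus strand. It stood at 13.8 TPM in 2iJi and 1.38 TPM in GK15, with 4.57, 0.33 and 2.67 TPM in the EpiSC libraries. GK15 thus lay within the EpiSC range and 2iJi above it. At Day 3, T stood at 16.9 TPM with SGC0946 and 2.64 TPM without. The ratio between the media was 9.99-fold (interval 5.14 to 22.3), from 149 and 9 expected counts. The effective length given for T differed 1.98-fold between the libraries, and on CPM the log2 ratio was 2.89 where TPM gave 2.63. Both log2 ratios have 1 added, which dampens the shift. The 9.99-fold ratio has none added, carries the length difference in full and would be larger without it.

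Krt8, a keratin of simple epithelia and trophoblast, lies on chromosome 15 from 101996698 to 102004482 on the minus strand. It stood at 51.1 TPM in 2iJi and 12.9 TPM in GK15, with 13.2, 6.86 and 8.78 TPM in the EpiSC libraries. Again GK15 lay among the EpiSC libraries and 2iJi above them, a 3.96-fold ratio (interval 3.40 to 4.64). At Day 3 it was higher than at Day 6 in either medium, at 205 TPM with SGC0946 and 236.5 TPM without.

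Among the 12 largest increases in 2iJi, by the rule for named genes, Trpm1, a cation channel of melanocytes and retinal bipolar cells, led with 35.9 TPM in 2iJi, 1.81 TPM in GK15 and at most 0.28 TPM in EpiSCs (log2 ratio 3.72). Msx1, a homeobox factor that responds to BMP, stood at 14.1 TPM in 2iJi and 0.23 TPM in GK15, between which lay EpiSC values of 7.85, 1.41 and 1.3 TPM. Wnt6, a WNT ligand, had 11.3 TPM in 2iJi and 1 expected count in GK15, with none in EpiSCs. Its ratio of 80.8-fold therefore has an interval from 14.5 to 3266. That ratio also depends on the effective length of Wnt6, which differed 2.05-fold between the libraries. Wls, which carries WNT ligands to the cell surface, stood at 18.8 and 1.31 TPM in 2iJi and GK15, with 6.18 to 7.80 TPM in EpiSCs.

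Scd2, a desaturase that makes unsaturated fatty acids, was the most abundant of these genes, at 371 TPM in 2iJi and 42.3 TPM in GK15. EpiSCs held still more of it, 972 to 1141 TPM. Cd24a, a surface glycoprotein, stood at 323 TPM in 2iJi, 40.1 TPM in GK15 and 96.3 to 137 TPM in EpiSCs. The remaining leaders had log2 ratios from 2.64 to 3.36. They were Adh1, an alcohol and retinol dehydrogenase, Gap43, a growth cone protein, Cited1, a CBP-binding coregulator, P2rx4, an ATP-gated channel, Anxa3, an annexin, and Meis2, a homeobox factor. Meis2 and Adh1 had no counts in any EpiSC library, whereas Gap43, Cited1, P2rx4 and Anxa3 were detected in all 3.

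The largest increases in GK15 were led by Etv4, an ETS factor downstream of FGF and ERK. It had 900 expected counts (59.5 TPM) in GK15 and 1 count (0.05 TPM) in 2iJi, against 105 to 138 TPM in EpiSCs. With a single count below the line its ratio of 1191-fold is bounded only as 199 to 44045. The effective length of Etv4 also differed 1.48-fold between the libraries, which raises that ratio. On CPM its log2 ratio was -5.57 where TPM gave -5.85. Mapk13, the p38 delta kinase, stood at 11.1 TPM in 2iJi and 119 TPM in GK15, and Upp1, which breaks down uridine, at 10.8 and 111 TPM. EpiSCs held at most 2.59 TPM of Mapk13 and 11.9 TPM of Upp1, so Upp1 was high in GK15 alone, while Mapk13 lay above every EpiSC library in both media and highest in GK15.

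Phf19, a Polycomb-like partner of PRC2, stood at 8.83 TPM in 2iJi and 86.7 TPM in GK15, with 9.67 to 15.0 TPM in EpiSCs. It was high in GK15 alone among these 5 libraries. Khdc3, a member of the subcortical maternal complex, stood at 4.75 and 33.2 TPM, and Aire, the autoimmune regulator, at 2.08 and 24.7 TPM. Neither had a count in EpiSCs. The contractile genes Myl9 and Acta2, a myosin light chain and smooth muscle actin, had log2 ratios of -3.10 and -2.78, at 2.66 against 30.3 TPM and 1.38 against 15.3 TPM. Car4, a membrane carbonic anhydrase, and Grhl2, an epithelial factor, completed this group with log2 ratios of -3.32 and -2.62, together with Otx2 and Bcas1. Bcas1 is doubtful, because its effective length differed 4.32-fold between the libraries and CPM gave a log2 ratio of -0.95 where TPM gave -2.64.

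Among 18 measured genes of germ cell specification, none was past 2-fold in either direction, against 8.77% of all genes. The median log2 ratio was -0.23, against 0.03 over all genes. In both media 15 of the 18 lay above every EpiSC library. By another measure, past 2-fold against the EpiSC mean, 1719 of all 12242 genes were higher in both. Kit, the receptor of germ cells, stood at 146 TPM in 2iJi and 169.9 TPM in GK15, and Ifitm3, a membrane protein of early germ cells, at 747 and 988 TPM. Of the genes of later germ cells, all 17 measured had a lower value in 2iJi, against 46.6% of all genes, with a median of -0.64, although only Rhox5 and Taf7l were past 2-fold, against 4.01% of all genes higher in GK15. Rhox5, an X-linked homeobox gene, stood at 281 TPM in 2iJi and 769.5 TPM in GK15 (log2 ratio -1.45), and Taf7l, a germline subunit of TFIID, at 0.53 and 2.59 TPM. Dazl, an RNA-binding protein of committed germ cells, stood at 65.2 and 79.4 TPM, and Ddx4, the Vasa helicase, at 9.01 and 9.44 TPM. All 17 lay above every EpiSC library in both media, to be read beside the same 1719 of all 12242 genes.

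Of 11 core pluripotency genes none was past 2-fold, against 8.77% of all genes, with a median of -0.32. Pou5f1, which encodes OCT4, stood at 1509 TPM in 2iJi and 1454 TPM in GK15, and Nanog at 311 and 329 TPM. Sox2 stood at 345 and 470 TPM, within 2-fold as well. Of 17 naive genes only Klf4 was past 2-fold, against 4.01% of all genes higher in GK15, at 2.85 TPM in 2iJi and 9.73 TPM in GK15. EpiSC replicate 1 held 40.4 TPM of Klf4 and the other EpiSC libraries 7.55 and 4.17 TPM, so the difference between media did not exceed the EpiSC spread unless that library was left out. Zfp42, known as Rex1, stood at 161 and 116 TPM, and the orphan receptor Esrrb at 273 and 287 TPM. Tfcp2l1, a naive factor downstream of LIF, stood at 42.0 and 38.4 TPM. The median over the naive genes was 0.07.

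Primed epiblast genes moved in both directions, 5 of 18 higher in each medium (4.76% and 4.01% of all genes in 2iJi and GK15), with a median of -0.14. Over the 14 members with more than 1 TPM in both libraries the median turned to 0.26. Besides Otx2, Car4 and Grhl2, the side of GK15 held Fgf5 and Dnmt3b. Car4, though on this list, was low in the EpiSC libraries, at 1.69 TPM or less. It stood within their range in 2iJi, at 0.44 TPM, and above it in GK15, at 13.35 TPM. Fgf5, a ligand of the late epiblast, stood at 0.45 TPM in 2iJi and 4.09 TPM in GK15, and Dnmt3b, a de novo DNA methyltransferase, at 17.6 and 41.9 TPM. Both were far below EpiSCs, which held 89.2 to 109 TPM of Fgf5 and 679 to 731 TPM of Dnmt3b. The side of 2iJi held Lefty2, Fgf8, Lefty1, Sfrp2 and Cdh2. Fgf8 stood at 10.7 and 2.69 TPM, Sfrp2, a secreted WNT modulator, at 13.4 and 5.98 TPM, and Cdh2, N-cadherin, at 11.2 and 5.08 TPM. In both media 14 of the 18 genes lay below every EpiSC library. Past 2-fold against the EpiSC mean, 1225 of all 12242 genes were lower in both. Pou3f1, a POU factor at 121 to 177 TPM in EpiSCs, was down to 0.40 TPM in 2iJi and 1.5 TPM in GK15.

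**Figure D2:**
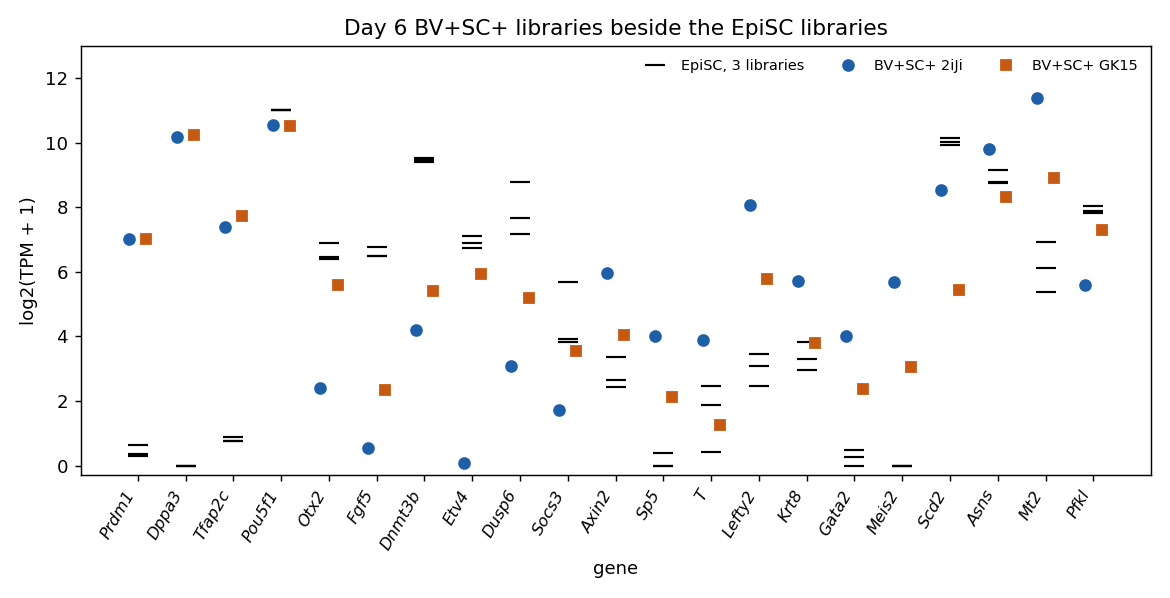
Level of 21 genes in the 2iJi library (circles), the GK15 library (squares) and each of the 3 EpiSC libraries (dashes), as log2(TPM + 1). Prdm1 and Dppa3 nearly coincide in both media, whereas Etv4, Dusp6 and Otx2 are lower in 2iJi and Axin2, Sp5, T, Lefty2, Krt8 and Meis2 are higher in it.

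Calls among targets of FGF and ERK were all on the side of GK15. Of 20 measured, 8 were past 2-fold and all 8 were higher in GK15, against 4.01% of all genes, with a median log2 ratio of -0.59. Spry4, a feedback inhibitor of receptor tyrosine kinases, had no counts in 2iJi and 280 in GK15 (6 TPM), which makes it at least 77.7-fold higher there against a floor of 3 counts. Dusp6, the phosphatase that switches off ERK, stood at 7.49 TPM in 2iJi and 35.8 TPM in GK15, with 444, 204 and 143 TPM in EpiSCs. Both media lay below every EpiSC library, and 2iJi lowest. Etv5, an ETS factor, was the most abundant, at 185 and 373 TPM, its log2 ratio of -1.01 just past 2-fold. Etv1, Ier3, Dusp4 and Spry1 were the others, with log2 ratios from -2.15 to -1.09. Each of the 8 differed by more than any pair of EpiSC libraries did, as did 980 of all 1074 genes past 2-fold. Some early response genes of this pathway, unlike Ier3, were within 2-fold of each other in the 2 media. Egr1 stood at 3.12 TPM in 2iJi and 3.49 TPM in GK15, Fos at 15.6 and 20.9 TPM, and Ccnd1, cyclin D1, at 2.59 and 2.99 TPM. Myc, at 3.15 and 5.27 TPM, was also within 2-fold.

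Of 19 measured genes of the LIF, JAK and STAT3 pathway, 8 were higher in GK15, against 4.01% of all genes, and none in 2iJi, with a median of -0.28. Socs3, the feedback inhibitor of JAK kinases, stood at 2.28 TPM in 2iJi and 10.8 TPM in GK15, and Stat3 itself at 5.15 and 15.3 TPM. EpiSCs held 13.2 to 51.0 TPM of Socs3 and 10.3 to 11.3 TPM of Stat3. The kinase gene Pim1 stood at 119.6 TPM in 2iJi and 287 TPM in GK15, and Ccnd3, cyclin D3, at 167 and 386 TPM. Sgk1, Klf4, Junb and Pim3 were the others past 2-fold. Socs3, Klf4 and Junb did not exceed the EpiSC spread. Without EpiSC replicate 1 all 8 did. The receptor genes were near equal, Lifr at 16.7 and 18.2 TPM and Il6st, the gp130 subunit, at 42.5 and 42.7 TPM. Among the kinases Jak1 stood at 21.9 and 26.5 TPM and Jak2 at 10.3 and 5.86 TPM. Of 13 immediate early genes, Ier3, Junb and Zfp36 were higher in GK15, against 4.01% of all genes, and none in 2iJi, with a median of -0.40. Of these only Ier3 exceeded the EpiSC spread, and Junb and Zfp36 did so without EpiSC replicate 1. EpiSC replicate 1 stood apart for these genes, with 654 TPM of Fos against 105 and 98.7 TPM in the other EpiSC libraries.

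Calls among WNT and beta-catenin targets were mostly on the side of 2iJi. Of 15 measured, 9 were higher in 2iJi and 2 in GK15 (4.76% and 4.01% of all genes), with a median log2 ratio of 1.18. Axin2, a feedback inhibitor of the pathway, stood at 61.4 TPM in 2iJi and 15.4 TPM in GK15, with 4.41, 9.26 and 5.32 TPM in EpiSCs. GK15 thus lay above the EpiSCs, and 2iJi above GK15, by 3.98-fold (interval 3.57 to 4.45). Sp5, a zinc finger factor induced by WNT, stood at 15.1 and 3.36 TPM, with at most 0.31 TPM in EpiSCs. Dkk1, a secreted WNT antagonist, stood at 3.02 and 0.21 TPM. The ubiquitin ligase gene Rnf43 stood at 3.60 and 0.42 TPM, and Nkd1, another inhibitor, at 2.36 and 0.48 TPM. Cdx2 and Cdx1, caudal homeobox factors, stood at 4.77 against 0.37 TPM and 7.28 against 1.67 TPM. Notum, a lipase that inactivates WNT ligands, stood at 51.4 and 23.0 TPM, but did not exceed the EpiSC spread unless EpiSC replicate 2 or 3 was left out, and shares 37.8% of its longest transcript with other genes.

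The exceptions among WNT genes were Lef1 and Dact1. Lef1, a DNA-binding partner of beta-catenin, stood at 23.8 TPM in 2iJi and 93.9 TPM in GK15, with 35.0 to 41.1 TPM in EpiSCs. Here 2iJi lay below the EpiSCs and GK15 above. Dact1, a modulator of the pathway, stood at 5.81 and 22.6 TPM. Tcf7, the other TCF factor listed with Lef1, was near equal at 43.2 and 47.6 TPM. The median of this list rests partly on genes near the detection limit in GK15. Over the 11 members with more than 1 TPM in both libraries it was 0.33, since that filter removes genes that are low in 1 medium.

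Because 9 of 15 measured WNT genes were higher in 2iJi, the promoters of the list were searched for the letters bound by TCF and LEF factors. The windows, from RefSeq on GRCm38.p6, run from 250 bases before to 50 after each transcription start, and were matched for 10 of the 15 genes. The letters CTTTGAA or CTTTGAT stood on either strand in 3 of 15 windows (20.0%), against 2842 of all 32851 windows searched (8.65%). All 3 windows belong to genes higher in 2iJi, of which 8 windows were found. A match is a description of the letters, and binding was not measured. The windows are those of Sp5, T and Dkk1, with the matching letters in capitals.
Sp5 promoter, GRCm38.p6 chr2:70474673-70474972, plus strand: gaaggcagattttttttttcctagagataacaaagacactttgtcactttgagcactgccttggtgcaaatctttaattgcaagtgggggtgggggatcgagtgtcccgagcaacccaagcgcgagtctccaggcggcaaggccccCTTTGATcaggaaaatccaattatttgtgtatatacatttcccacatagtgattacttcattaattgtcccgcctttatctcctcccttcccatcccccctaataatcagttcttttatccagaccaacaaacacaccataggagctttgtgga
T promoter, GRCm38.p6 chr17:8434173-8434472, plus strand: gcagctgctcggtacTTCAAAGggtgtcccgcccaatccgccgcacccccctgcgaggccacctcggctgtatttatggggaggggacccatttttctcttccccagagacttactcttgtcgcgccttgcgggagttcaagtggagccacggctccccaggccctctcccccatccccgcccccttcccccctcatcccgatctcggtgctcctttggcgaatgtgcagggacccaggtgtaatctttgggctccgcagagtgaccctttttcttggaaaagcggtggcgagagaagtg
Dkk1 promoter, GRCm38.p6 chr19:30549447-30549746, minus strand: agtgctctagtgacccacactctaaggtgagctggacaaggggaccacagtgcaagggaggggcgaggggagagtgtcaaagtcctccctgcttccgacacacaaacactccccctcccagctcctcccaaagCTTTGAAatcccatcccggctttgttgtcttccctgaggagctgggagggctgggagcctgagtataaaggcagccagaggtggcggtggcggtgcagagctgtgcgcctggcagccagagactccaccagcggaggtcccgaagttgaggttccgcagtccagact
For the 17 measured trophoblast genes, AGATAA, the letters bound by GATA factors, stood in 2 of 21 windows of the 13 that were matched (9.52%), against 11.2% of all windows. For the streak genes the TCF and LEF letters stood in 1 of 5 windows, which is that of T.

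**Figure D3:**
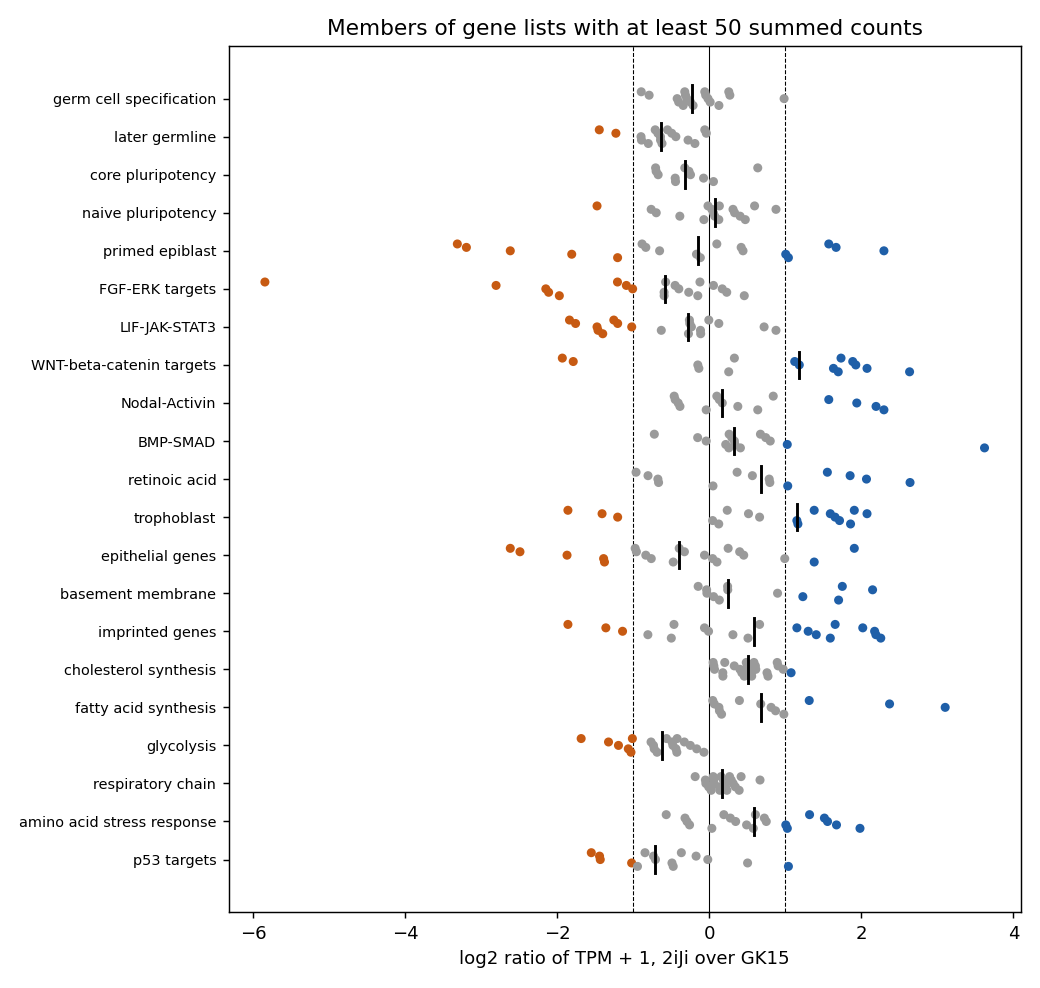
Log2 ratio of TPM + 1, 2iJi over GK15, of each member of 21 gene lists with at least 50 summed counts; bars mark the median of each list and dashed lines the 2-fold limits. WNT targets and trophoblast genes have medians over 1, while glycolysis and later germline genes lie wholly below 0.

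Of 15 Nodal and Activin genes, 4 were higher in 2iJi and none in GK15 (4.76% and 4.01% of all genes), with a median of 0.17. Lefty2, an inhibitor that Nodal induces, stood at 267 TPM in 2iJi and 53.6 TPM in GK15, with 4.55 to 10.0 TPM in EpiSCs. Lefty1, its relative, stood at 209 and 69.5 TPM, with 408 to 589 TPM in EpiSCs. So Lefty2 was above the EpiSCs in both media, and Lefty1 below them. Fst, which binds Activin, stood at 6.25 and 0.89 TPM. Nodal itself was near equal, at 46.6 and 43.5 TPM. Of 15 BMP and SMAD genes, Msx1 and Id4 were higher in 2iJi, against 4.76% of all genes, and none in GK15, with a median of 0.33. Id1 stood at 21.0 and 12.2 TPM and Id3 at 72.6 and 62.4 TPM, both within 2-fold.

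Of 14 genes of retinoic acid signalling, 5 were higher in 2iJi, against 4.76% of all genes, and none in GK15, with a median of 0.68. Meis2 stood at 50.3 TPM in 2iJi and 7.22 TPM in GK15, and Crabp2, which delivers retinoic acid to its receptors, at 57.8 and 13 TPM. The receptor gene Stra6 and the dehydrogenase gene Rdh10 were also higher in 2iJi. Stra8, a meiotic gene that retinoic acid induces in germ cells, was within 2-fold at 4.17 and 7.27 TPM. Cyp26a1, which degrades retinoic acid, was within 2-fold as well, at 2.12 and 3.96 TPM. So these members did not share a direction.

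Of the 22 genes listed for the primitive streak and mesoderm, 6 were measured and 4 of these were higher in 2iJi (4.76% of all genes), with a median of 1.85, or 1.07 over the 4 with more than 1 TPM in both libraries. They were T, Cdx1, Cdx2 and Wnt3, a WNT ligand of the streak at 7.93 TPM in 2iJi and 0.26 TPM in GK15. Eomes, a T-box factor, was within 2-fold at 7.6 and 5.02 TPM. The defining mesoderm markers were near the floor in both media. Mesp1 had 1 count in each, Tbx6 had 3 and 2, and Hand1 stood at 0.88 and 1.36 TPM, against 493 and 636 TPM at Day 3.

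Of 17 measured trophoblast genes 9 were higher in 2iJi and 3 in GK15, against 4.76% and 4.01% of all genes, with a median of 1.15. Krt8 and its partner Krt18 belong to them, Krt18 at 50.6 TPM in 2iJi and 18.9 TPM in GK15. Gata2, a factor of trophoblast giant cells, stood at 15.2 and 4.16 TPM, with at most 0.41 TPM in EpiSCs and with 82.1 and 95.1 TPM at Day 3. Tfap2a, an AP-2 factor, stood at 3.53 and 0.25 TPM, and Tead4, a partner of YAP, at 28.4 and 12.1 TPM. Tead4 did not exceed the EpiSC spread unless EpiSC replicate 1 or 3 was left out. The other increases were Cdx2, Ahnak, Peg10 and Igf2, and the genes higher in GK15 were H19, Tead3 and Wnt7b.

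Of the 5 defining trophoblast markers, Gata2 was the most abundant and their summed level was 21.6 TPM in 2iJi and 9.74 TPM in GK15. Plac1, a placental surface gene, stood at 3.16 and 2.82 TPM and Gata3 at 1.13 and 0.81 TPM. Elf5 had 2 counts in each library, and Krt7 stood at 1.75 and 1.67 TPM, with an effective length that differed 2.23-fold and a log2 ratio of -0.76 on CPM. At Day 3 the same 5 genes summed to 146 TPM with SGC0946 and 189 TPM without. Their part in the result was not tested.

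Most defining markers of other cell types were low in both libraries. The 4 endoderm markers Gata4, Gata6, Sox17 and Foxa2 summed to 0.04 TPM in 2iJi and 0.39 TPM in GK15, Gata6 highest. The fibroblast markers Col1a1, Col1a2 and Thy1 summed to 2.83 and 3.90 TPM. The effective length of Col1a1 differed 2.7-fold between the libraries, and its log2 ratio was -0.52 on TPM and -1.67 on CPM. Among neural markers Pax6, an eye and neural factor, differed, at 2.32 TPM in 2iJi and 11.3 TPM in GK15 (log2 ratio -1.89), with 2.24 to 2.77 TPM in EpiSCs. Sox1 stood at 1.46 and 0.37 TPM. Ptprc, the marker of blood cells, had no counts in either library. Pecam1, an adhesion molecule of endothelium that germ and pluripotent cells also express, stood at 115 and 144 TPM. Tek, the angiopoietin receptor, stood at 0.15 TPM in 2iJi and 6.43 TPM in GK15.

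From the wider lists for those cell types, 6 endoderm genes were measured with 1 higher in each medium (4.76% and 4.01% of all genes in 2iJi and GK15) and a median of 0.81. The pair was Lama1, a laminin chain, in 2iJi and Amn, a receptor subunit of absorptive epithelia, in GK15. In both media 4 of the 6 lay above every EpiSC library, beside 1719 of all 12242 genes past 2-fold above the EpiSC mean. The whole list summed to 3734 TPM in 2iJi and 2224 TPM in GK15, against 166 to 195 TPM in EpiSCs. Nearly all of that sum is Apoe, an apolipoprotein that many cell types make, at 3696 and 2192 TPM. The part of these genes in the result was not tested. Of 7 neuroectoderm genes Nes, an intermediate filament of neural progenitors, was higher in 2iJi at 19 against 4.91 TPM, and Pax6 in GK15, against the same shares of all genes, with a median of 0.38. Of the blood and endothelial genes 2 were measured, Tek and Pecam1.

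Epithelial genes were split. Of 21 measured, 5 were higher in GK15 and 2 in 2iJi (4.01% and 4.76% of all genes), with a median of -0.40. Esrp1, a splicing regulator of epithelia, stood at 18.6 TPM in 2iJi and 109 TPM in GK15, with 17.9 to 26.5 TPM in EpiSCs. The tight junction genes Cldn7 and Cldn6 and the polarity gene Crb3 were also higher in GK15, with log2 ratios from -1.87 to -1.38. Cldn7 and Crb3 did not exceed the EpiSC spread unless EpiSC replicate 3, for Cldn7, or 1, for Crb3, was left out. The keratins Krt8 and Krt18 were the genes on the side of 2iJi. The main adhesion genes were near equal, Cdh1, E-cadherin, at 67.5 and 70.7 TPM and Epcam at 181 and 252 TPM.

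Of 12 mesenchymal genes, 3 were higher in 2iJi and 2 in GK15 (4.76% and 4.01% of all genes), with a median of 0.23. Vim, vimentin, stood at 250 TPM in 2iJi and 96.2 TPM in GK15, and Zeb2, a repressor of E-cadherin, at 2.76 and 0.15 TPM. Cdh2 was the other. Acta2 and Tagln, both smooth muscle genes, were higher in GK15. Of 12 basement membrane genes, 4 were higher in 2iJi, against 4.76% of all genes, and none in GK15, with a median of 0.24. Serpinh1, the collagen chaperone, stood at 207 and 60.9 TPM, and the laminin chain Lama1 at 18.2 and 3.34 TPM. Col4a2 and Lama5 were the others.

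Of 11 DNA methylation genes, Dnmt3l and Dnmt3b were higher in GK15, against 4.01% of all genes, and none in 2iJi, with a median of -0.09. Dnmt3l, the cofactor of the de novo enzymes, stood at 36.6 TPM in 2iJi and 108 TPM in GK15, and had no counts in EpiSCs. Dnmt3a was within 2-fold, at 26.7 and 42.6 TPM. The maintenance enzyme Dnmt1, at 199 and 212 TPM, and its partner Uhrf1, at 93.1 and 78.7 TPM, were near equal. Tet1, which oxidises methylated cytosine, stood at 56.5 and 67.9 TPM.

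Of 20 imprinted genes 12 were past 2-fold, against 8.77% of all genes, 9 higher in 2iJi and 3 in GK15, with a median of 0.58. The non-coding RNAs Meg3 and Rian, expressed together from the maternal allele of one cluster, stood at 6.40 against 0.55 TPM and 12 against 1.88 TPM in 2iJi and GK15. EpiSCs held 57.6 to 84.8 TPM of Meg3 and 118 to 131 TPM of Rian, far above both media. Plagl1, a zinc finger factor, stood at 109 and 23.1 TPM, and Grb10, an adaptor that restrains growth, at 47.4 and 10.95 TPM. Igf2, a fetal growth factor, stood at 169.8 TPM in 2iJi and 75.9 TPM in GK15, whereas the neighbouring H19 stood at 5.48 and 22.6 TPM. These neighbours were thus high in opposite media, and EpiSCs held 22.0 to 25.0 TPM of Igf2 and at most 1.23 TPM of H19. Peg3 and its neighbour Usp29, both paternally expressed, were higher in GK15, Peg3 at 108 and 239.6 TPM. Phlda2, Peg10, Sgce and Zdbf2 were the other increases in 2iJi.

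Cholesterol synthesis genes differed by small amounts. On TPM all 24 measured had a higher value in 2iJi, against 53.3% of all genes, with a median of 0.50, and 21 of the 24 did after TMM. Only Mvk, mevalonate kinase, was past 2-fold, at 48.4 and 22.4 TPM, against 4.76% of all genes. In 22 of the 24 genes 2iJi lay nearer to EpiSCs than GK15 did. Among genes past 2-fold between the media this held for 650 of 1074, and no share over all genes is given. All 13 fatty acid genes had a higher value in 2iJi on TPM, and 11 after TMM, with a median of 0.68, and Scd2, Scd1 and Srebf1 were past 2-fold, against 4.76% of all genes. Srebf1, the factor that drives this pathway, stood at 128 and 50.9 TPM, and Fasn, fatty acid synthase, at 205 and 128 TPM.

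For glycolysis, all 20 measured genes had a lower value in 2iJi on TPM, against 46.6% of all genes, with a median of -0.63, and 6 of them were past 2-fold, against 4.01% of all genes. Pfkl, a phosphofructokinase, stood at 47.5 TPM in 2iJi and 155 TPM in GK15, with 226 to 262 TPM in EpiSCs. Hk1, a hexokinase, stood at 33.7 and 78.6 TPM, and Ldhb, a lactate dehydrogenase subunit, at 453 and 916 TPM. Pdk1, Slc16a3 and Pfkm were the others. The most abundant enzymes differed less, Gapdh at 7967 and 8944 TPM and Pkm at 1836 and 2561 TPM. On CPM the direction of Gapdh turned, with a log2 ratio of 0.06 where TPM gave -0.17. Eno1, at 2219 and 2979 TPM, shares 85.6% of its longest transcript with Eno1b, so the pair cannot be told apart well. Of 13 hypoxia genes, 4 were higher in GK15, Pdk1, Egln3, Ankrd37 and Ero1l (4.01% of all genes), and none in 2iJi, with a median of -0.49. Of 22 respiratory chain genes none was past 2-fold, against 8.77% of all genes, with a median of 0.17.

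Of 20 genes of the amino acid stress response 7 were past 2-fold and all 7 higher in 2iJi, against 4.76% of all genes, with a median of 0.59. Asns, asparagine synthetase, stood at 903 TPM in 2iJi and 315 TPM in GK15, with 432 to 572 TPM in EpiSCs. Here 2iJi lay above the EpiSCs and GK15 below, while the other 19 genes lay below every EpiSC library in both media. Of all 12242 genes, 1225 were past 2-fold below the EpiSC mean in both. Atf5, a stress factor, stood at 22.0 and 4.81 TPM, and Pck2, a mitochondrial carboxykinase, at 50.3 and 15.1 TPM. Chac1, Aldh18a1, Vldlr and Ddit3 were the others, while Atf4, which drives this response, was within 2-fold at 286 and 203 TPM.

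The metallothioneins, which bind zinc and copper, were much higher in 2iJi. Mt1 stood at 1348 TPM in 2iJi and 253 TPM in GK15, with 92.1 to 195 TPM in EpiSCs, and Mt2 at 2653 and 479 TPM, with 41.0 to 120.6 TPM in EpiSCs. Both media lay above every EpiSC library. They were the single members past 2-fold among 12 NRF2 and metallothionein genes, against 4.76% of all genes, and the list's median was -0.03. Hmox1, haem oxygenase, stood at 72.8 and 57.8 TPM.

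Of 15 targets of p53, 4 were higher in GK15 and 1 in 2iJi (4.01% and 4.76% of all genes), with a median of -0.71. Zmat3, an RNA-binding target, stood at 7.04 TPM in 2iJi and 22.6 TPM in GK15, and Pmaip1, the BH3 protein NOXA, at 6.75 and 19.97 TPM. Eda2r and Trp53inp1 were the others on that side. Cdkn1a, which encodes p21, was the exception, at 84.6 TPM in 2iJi and 40.6 TPM in GK15. Its log2 ratio of 1.04 was just past 2-fold. Of 21 cell cycle genes, 3 were higher in 2iJi, Cdkn2b, Ccnd2 and Cdkn1a, and 2 in GK15, Ccne1 and Ccnd3, against 4.76% and 4.01% of all genes, with a median of -0.24. Cdkn2b, the CDK inhibitor p15, stood at 4.58 and 0.49 TPM, and Ccne1, cyclin E1, at 48.2 and 121 TPM. Mki67, the proliferation marker, was within 2-fold at 101 and 131 TPM.

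Of 10 interferon response genes, B2m was higher in 2iJi and Bst2 in GK15, against 4.76% and 4.01% of all genes, with a median of 0.01. B2m, the light chain of MHC class I, stood at 49.7 TPM in 2iJi and 9.68 TPM in GK15, with 41.4 to 55.5 TPM in EpiSCs. GK15 alone was low. Bst2, which tethers viruses to the cell surface, stood at 119 and 341 TPM.

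Some lists held too few counts to describe. None of the 2-cell-like genes and 1 of 11 linker and core histone genes, Hist1h1c at 3.83 and 5.80 TPM, reached 50 summed counts. Y-linked genes and Xist served as a check on mixed-up lines. All 5 measured genes were within 2-fold, while 8.77% of all genes were past it. Eif2s3y stood at 149.5 and 143 TPM, and Xist was at most 1.83 TPM in all 5 libraries. A mix-up between male lines would not show in this check.

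The calls depended on gene length. Of the 2449 genes with the longest effective length 135 were higher in 2iJi and 41 in GK15, and of the 2449 with the shortest 102 and 134. The medians of these groups were 0.07 and 0.05. Whether this reflects the medium or the libraries was not tested.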

How the data were processed

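Bulk RNA-seq of 2 BV+SC+ samples, 3 EpiSC samples and 2 Day 3 samples was used; the c-Kit, single-cell, ATAC-seq and ChIP-seq data were not used here. Per the labels, total RNA was depleted of ribosomal RNA and sequenced as paired reads on a HiSeq Xten, whereas the study's methods name an mRNA kit. The submitters' processing notes name bcl2fastq, Bowtie2 and RSEM 1.3.1 with mm10. The authors deposited, for each gene, the expected count (reads shared out among transcripts by RSEM, so not always whole), TPM and the effective length. Per the labels the kit digests the second cDNA strand, but whether counting used strand is not given in the sources used here.

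From these, log2 ratios of TPM + 1 were computed for genes with at least 50 summed expected counts. Counting error came from the expected counts. Ratios of TPM have exact binomial intervals, and a gene at 0 was set against a floor of 3 counts, which is 0.203 CPM (counts scaled to library depth) in 2iJi and 0.166 in GK15. Symbols came from GENCODE M21, which matched 98.25% of the 29267 gene IDs; the study names another release. Transcripts were compared with BLAST+ 2.17.0 (98% identity over 75 bases) to find genes that share sequence. TMM factors came from edgeR 4.0.16 in R 4.3.3, on rounded counts, for an alternative scaling. Other steps used Python 3.11.15, NumPy 2.4.6, pandas 2.3.3, SciPy 1.17.1 and Matplotlib 3.10.9. The calculation was tested on simulated data.

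Named genes were Otx2, Krt8, T, Prdm1 and Dppa3; the 12 largest differences in each direction among protein-coding genes with at least 10 TPM in the higher library, an interval wholly past 2-fold and a difference larger than every EpiSC pair, which 333 genes met; and, of each of 36 gene lists, the members past 2-fold and up to 4 abundant others. Not every such member is described, and some further list members within 2-fold were named after their values were seen. The samples and lists were chosen with earlier results of these data known. Alternatives were other pseudocounts, scalings, count filters and EpiSC libraries left out in turn.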

Additional observations from a re-analysis of the deposited data

Results flagged for a closer look

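For 7 genes the 2 media lay past 2-fold on opposite sides of the EpiSC mean and outside the EpiSC range. The differences were not tested, since each medium has 1 library. In 2iJi above the EpiSCs and in GK15 below them were Msx1 (log2 ratio 3.62), Wls (3.10), Gap43 (3.07), Cd24a (2.98), P2rx4 (2.70) and Asb13 (2.13). Asb13, a subunit of a ubiquitin ligase, stood at 18.8 TPM in 2iJi, 3.52 TPM in GK15 and 7.16 to 10.0 TPM in EpiSCs. The reverse held for Ccdc136 (-2.21), at 8.64 TPM in 2iJi, 43.5 TPM in GK15 and 15.2 to 22.0 TPM in EpiSCs. For P2rx4 the effective length differed 1.6-fold between the libraries, and CPM, which leaves length out, gave a log2 ratio of 2.13.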

How the results depend on the processing

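The alternatives were applied to 5 counts, 452 gene ratios and 35 list medians. No gene ratio or list median that had been past 2-fold changed sign. The smaller pseudocount could not change the sign of a gene ratio. The counts under other scalings, with at least 10 summed counts, over 1 TPM in both libraries, in protein-coding genes, or in genes whose effective length differed by under 1.2 times, an alternative chosen after seeing the data, stayed within 1.5 times of those given. With a pseudocount of 0.1 TPM, 890 genes were higher in 2iJi. With at least 200 summed counts, 361 were higher in 2iJi, 306 in GK15 and 626 exceeded the EpiSC spread, of 10045 genes tested. With the counting interval wholly past 2-fold the counts were 313, 260 and 544. Without 1 EpiSC replicate at a time, 1021 to 1030 genes exceeded the EpiSC spread, 788 to 848 were past 2-fold against EpiSCs in 2iJi only and 1110 to 1117 in GK15 only. Of the 452 gene ratios, 93 left their counting interval on CPM, 77 with TMM and 48 with the pseudocount. Some list medians moved beyond counting error and by over 1.5 times: WNT targets to 1.99 with the pseudocount and 0.33 over 1 TPM in both libraries, streak genes to 1.07 and primed genes to 0.26 over 1 TPM, epithelial genes to -0.67 on CPM, and the 2 blood and endothelial genes to -2.52 with the pseudocount. Over 1 TPM only Pecam1 is left of that pair, at -0.32. Of 135 named genes past 2-fold, 130 stayed so on CPM and 129 with TMM. All 135 stayed so with the pseudocount, but a smaller pseudocount can only enlarge a ratio, so this is no check. No paired analysis was possible because each medium has 1 library.

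The limits are those of 2 libraries: medium, culture, sort and library preparation cannot be told apart, and intervals cover counting error only. Genes under about 1 TPM rest on few counts, and for them the pseudocount sets the size of the ratio. The EpiSC libraries are shallower and come from another cell type, so their spread stands in only roughly for that between BV+SC+ libraries. What 2iJi and GK15 held is not given in the sources used here.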
